A study of Homo sapiens with 6 samples.

Results

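The uroplakins are the membrane proteins that coat the surface of the bladder epithelium, and their 5 genes, UPK1A, UPK1B, UPK2, UPK3A and UPK3B, were compared between control cells of a human breast cancer line and cells of that line with knockdown of mesothelin (MSLN). The members were taken by gene symbol from the deposited table, in which all 5 of them were found among 17860 listed genes. UPK2 was chosen by its measured rise after the knockdown, so its difference between the groups is given below as a description without a test. The other 4 genes were included because they belong to the same family, with earlier results of these data known. HCC1806-HM3 is a liver-metastatic derivative of HCC1806, a triple-negative breast cancer line that the labels describe as squamous cell carcinoma, and it was obtained by repeated rounds of injection into mice and recovery of metastases. 3 samples carried a control shRNA (shNC) and 3 an shRNA against MSLN (shMSLN), delivered to both groups by lentivirus followed by G418 selection. All cells were grown in RPMI medium with fetal bovine serum. The labels give 1 shMSLN line and do not say which shRNA it carried, and nothing states that the 3 samples of a group came from separate cultures, so the p-values measure only the spread between these samples.

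In the bladder, uroplakins are packed into rigid plaques in the apical membrane of umbrella cells, the outermost cells of the urothelium, where they form part of the permeability barrier. UPK1A and UPK1B encode the tetraspanins UPIa and UPIb, which cross the membrane several times, whereas UPK2, UPK3A and UPK3B encode the single-pass partners UPII, UPIIIa and UPIIIb. UPIa leaves the endoplasmic reticulum together with UPII, and UPIb together with a UPIII protein. UPK3B and MSLN are also both used as markers of mesothelial cells, which line the body cavities.

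On GRCh38 (GENCODE release 29), all 5 genes lie on the forward strand of different chromosomes. UPK1A is at chr19:35666516-35678483, UPK1B at chr3:119173517-119205153, UPK2 at chr11:118925164-118958559, UPK3A at chr22:45284982-45295874 and UPK3B at chr7:76510428-76516521. The coding transcript of UPK2 takes up only the last part of its locus, from 118956316 to 118958559, with 5 exons and a coding sequence of 555 bases for 184 residues. A longer annotated UPK2 transcript reaches back over the start of BCL9L, which is read from the opposite strand. Reads can be shared between similar genes, so every stretch of 50 bases in the transcripts of each uroplakin was looked for in the transcripts of all other genes. For UPK1A, UPK2 and UPK3A 0 stretches were shared in the same orientation. Reverse complements were not searched, so sharing with genes on the opposite strand, BCL9L at UPK2 and UPK1A-AS1 at UPK1A, could not be found. For UPK1B 2.47% of the 2389 stretches occurred in other genes, and for UPK3B 9.39% of 2704 did, in its pseudogene UPK3BP1 and in a read-through transcript that contains it.

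MSLN itself fell from 231, 226 and 227 CPM (read counts scaled to TMM-adjusted library size) in the shNC samples to 37.1, 36.2 and 35.4 CPM in the shMSLN samples, so each library matched its label. The estimated counts of a sample summed to 17507837 at the lowest and 18512135 at the highest. The shMSLN columns lacked a value for up to 1103 genes, none of them a uroplakin, and 16573 genes had a value in all 6 samples. In shMSLN replicate 1, 0 genes had a count of 0, whereas the shNC samples had 1094 to 1150 such genes and 0 missing values. Whether missing cells stand for counts of 0 was not tested. If they do, genes near 0 in shMSLN cells are partly missing from the 16573. Of the estimated counts above 100, 47.7% in shMSLN replicate 2 and 47.8% in replicate 3 had no decimals, against 3.36% to 7.02% in the other 4 samples, so these 2 columns differ from the others in the kind of value they hold. Keratin 5 (KRT5), at 2270 CPM in shNC cells, and TP63, at 396 CPM, both defining markers of basal and squamous epithelium, were abundant. On a basal and squamous list, 14 of the 15 genes were measured above the filter on low counts, but their levels were uneven. KRT14 was at 3.52 CPM in shNC and 3.98 CPM in shMSLN cells, and DSG3 was at 8.15 CPM in shNC cells.

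The family was expressed very unevenly. TPM values, which are scaled for gene length and can be compared between genes, were highest for UPK1B and UPK3B, intermediate for UPK2, low for UPK3A and close to 0 for UPK1A. In shNC cells UPK1B was at 202 ± 0.751 TPM (SD, n = 3) and UPK3B at 199 ± 8.47 TPM, and these neighbours did not differ beyond their spread, since UPK3B was the higher of them in replicate 1 and UPK1B in replicates 2 and 3. UPK2 followed at 61.4 ± 3.57 TPM, UPK3A at 9.06 ± 1.45 TPM and UPK1A at 0.167 ± 0.208 TPM. UPK1B exceeded 95.7% of the 16573 genes in mean level, UPK2 83.3% and UPK3A 40.9%. In shMSLN cells the order of the means was the same, with UPK2 at 186 ± 7.73 TPM now above 95.2% of genes. The 5 genes summed to 472 ± 6.61 TPM in shNC cells and 735 ± 19.5 TPM in shMSLN cells (SD, n = 3 each). UPK2 made up 12.3%, 13.8% and 12.9% of that sum in shNC replicates 1, 2 and 3 and 25.7%, 25.3% and 24.9% in the shMSLN replicates. These shares rest on levels per length, and on CPM, which are not divided by length, they averaged 7.19% and 14.9%. UPK2 was picked for its rise, so the growth of the sum and of this share in part restates that choice.

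**Figure D1:**
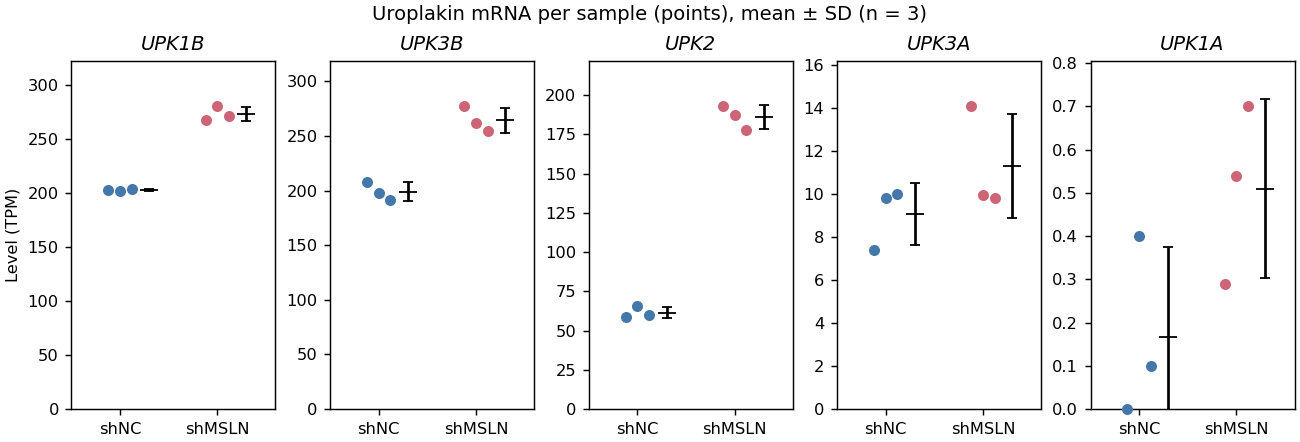
The level of each uroplakin is plotted in TPM on a linear axis from 0, with its own scale in each panel, for 3 shNC (blue) and 3 shMSLN (red) samples; points are samples and the black bar is the mean ± SD, cut off at 0 for UPK1A. The groups are apart for UPK1B, UPK3B and UPK2 and overlap for UPK3A and UPK1A.

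Among the single-pass partners, UPK2 encodes UPII, a small glycoprotein used as a marker of urothelial origin. It was at 58.8, 65.5 and 59.9 TPM in shNC replicates 1, 2 and 3 and at 193, 188 and 178 TPM in shMSLN replicates 1, 2 and 3. All 3 shMSLN samples lay far above all 3 shNC samples, and the spread within each group was small. These levels rest on 447 to 474 estimated reads per shNC sample and 1258 to 1454 per shMSLN sample. Counting error is small beside the gap between the groups, and its part in the spread within each group was not tested. In CPM the gene went from 25.2 ± 0.907 to 74.8 ± 3.57 (SD, n = 3 each), a log2 fold change (log2FC) of 1.57 with a standard error (SE) of 0.055, or 2.96-fold. Of the 14552 genes tested, 40 had a log2FC at least as high, UPK2 included, and this rank is a description of a gene picked for its rise. The level in shMSLN replicate 1, at 78.2 CPM, was the highest of the 3, although this column held few whole numbers, like the shNC columns. With that replicate as the only shMSLN sample the log2FC was 1.63, and without it 1.53.

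UPK3B encodes UPIIIb, a relative of UPIIIa that can also pair with UPIb. It was at 208, 198 and 191 TPM in shNC replicates 1, 2 and 3 and at 277, 262 and 254 TPM in the shMSLN replicates. The lowest shMSLN sample was thus above the highest shNC sample. The gene rose by a log2FC of 0.39 (SE 0.047), with an edgeR quasi-likelihood p, adjusted over all tested genes, of 1.65e-05, or 1.31-fold. UPK3B has a pair of listed relatives on the same chromosome, UPK3BL1 and UPK3BL2, whose own functions are little known. UPK3BL1 had a log2FC of 0.21 (SE 0.068, adjusted p = 0.0232), with 38.5 ± 3.58 CPM in shNC and 44.6 ± 2.56 CPM in shMSLN cells, and its groups overlapped. UPK3BL2 was at 35.8 ± 2.18 CPM and 36.4 ± 0.727 CPM, a log2FC of 0.024 (adjusted p = 0.783). The values of UPK3BL1 are uncertain, since 98.1% of its 50-base stretches occurred in transcripts of other genes, and UPK3BL2 was not searched in this way.

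UPK3A encodes UPIIIa, the usual partner of UPIb in umbrella cells, whose cytoplasmic tail carries signals inward. It was at 7.39, 9.80 and 10.0 TPM in shNC cells and 14.1, 9.94 and 9.81 TPM in shMSLN cells. Only shMSLN replicate 1 stood above the shNC range, and the other 2 shMSLN samples lay within it. The log2FC of 0.31 did not pass the test (SE 0.17, adjusted p = 0.188). Without shMSLN replicate 1 it was 0.098 (adjusted p = 0.698), without shNC replicate 1 it was 0.20 (adjusted p = 0.411), and with shMSLN replicate 1 as the only shMSLN sample it was 0.65, with adjusted p-values from 0.0587 to 0.698 over all alternatives. At 66 to 124 reads per sample the depth limits what can be seen of this gene.

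Of the tetraspanin members, UPK1B was the most even. Its levels were 202, 202 and 203 TPM in shNC replicates 1, 2 and 3 and 267, 280 and 271 TPM in the shMSLN replicates. No shMSLN sample came near the shNC range. UPK1B rose by a log2FC of 0.40 (SE 0.037, adjusted p = 1.32e-06), or 1.32-fold, from 186 ± 4.47 to 245 ± 4.78 CPM (SD, n = 3 each). UPK1A, whose product UPIa is the bladder receptor for the FimH adhesin of Escherichia coli and the usual partner of UPII, had 0, 4 and 1 estimated reads in the shNC samples and 3, 5.77 and 7 in the shMSLN samples. It was too low for the test, and the groups overlapped. Its 5 shNC reads have an exact Poisson interval of 1.62 to 11.7 (95%, counting error only) and its rounded sum of shMSLN reads one of 9.15 to 25.98. With the filter loosened to 1 count, UPK1A had a log2FC of 1.61 (SE 0.78, adjusted p = 0.135). Whether UPK1A differed between the groups can therefore not be told at this depth.

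Of the 3 members that passed the filter and were included as family of UPK2, 2 rose, 0 fell and 1 did not pass. Earlier results of these data were known when the members were chosen. The background was high, since 34.6% of all tested genes were called in either direction and 16.6% were called higher in shMSLN cells. Groups without overlap and higher in shMSLN cells, as in UPK1B, UPK3B and UPK2, were found for 22.7% of all tested genes. With 3 genes, no statement about the family as a group can be made from these counts.

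**Figure D2:**
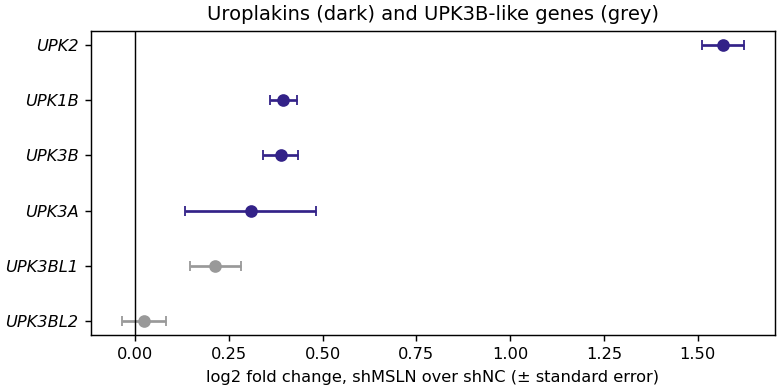
Points are log2 fold changes of shMSLN over shNC from edgeR and bars are standard errors, for the 4 uroplakins above the filter (dark) and for UPK3BL1 and UPK3BL2 (grey). UPK2 lies at 1.57, UPK1B and UPK3B lie together near 0.39, and the bar of UPK3A is the widest.

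Set against each other in each sample, UPK1B and UPK3B had nearly equal levels, whereas the other pairs of partner genes were far from equal. The ratio of UPK1B to UPK3B in TPM was 0.973, 1.02 and 1.06 in the shNC samples and 0.965, 1.07 and 1.07 in the shMSLN samples, so both groups covered nearly the same range. For UPK1B over UPK3A, which encode the usual partners UPIb and UPIIIa, the ratio was 27.4, 20.6 and 20.3 in shNC cells and 19.0, 28.2 and 27.6 in shMSLN cells, and these groups overlapped too. UPK2 over UPK1B went from 0.291, 0.324 and 0.295 to 0.722, 0.670 and 0.655, which in part restates the choice of UPK2 by its rise. UPK2 transcripts were thus present at 58.8 TPM or more in every sample while those of its usual partner gene UPK1A stayed at 0.70 TPM or less.

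The upstream regions of UPK1B and UPK3B are shown because both genes rose by similar amounts. RefSeq promoter sequences (GRCh38.p14) were matched for 3 of the 5 uroplakins, UPK1A, UPK1B and UPK3B. The 250 bases before the annotated start were searched on both strands for 8 motifs, each of which is capitalised where it occurs: the TATA box TATAAA, the CCAAT box CCAAT, the SP1 box GGGCGG, the GATA motif AGATAA, the GRHL motif AACCGGTT, the PPAR-RXR direct repeat, the ETS motif CCGGAAGT and the EGR1 motif GCGTGGGCG. The stretches are chr3:119173348-119173597 for UPK1B and chr7:76510302-76510551 for UPK3B, both on the forward strand. The start is the RefSeq one, taken to lie at the end of each stretch, and distances are counted from there. Both stretches run past the GENCODE starts given above, 119173517 for UPK1B and 76510428 for UPK3B. Their last parts thus lie within these genes as GENCODE places them.
UPK1B: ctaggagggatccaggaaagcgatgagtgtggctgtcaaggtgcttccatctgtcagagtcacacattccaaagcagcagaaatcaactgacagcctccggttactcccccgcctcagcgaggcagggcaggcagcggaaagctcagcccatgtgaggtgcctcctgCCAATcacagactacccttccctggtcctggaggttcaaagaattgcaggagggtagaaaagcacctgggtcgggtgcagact
UPK3B: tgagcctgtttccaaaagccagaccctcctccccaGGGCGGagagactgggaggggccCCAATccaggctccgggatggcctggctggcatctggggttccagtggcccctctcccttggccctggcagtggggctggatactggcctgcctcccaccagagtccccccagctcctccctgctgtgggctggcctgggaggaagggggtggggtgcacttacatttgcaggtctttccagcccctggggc
UPK1B held 1 CCAAT box, which begins 83 bases before the start, and UPK3B held 1 CCAAT box at 192 bases and 1 SP1 box at 215 bases. Of 35116 promoters searched in the same way, 32.0% held a CCAAT box and 42.6% an SP1 box. UPK1A held 1 TATA box, 194 bases before the start, as did 10.7% of all promoters. The other 5 motifs were not found in these 3 windows, and they occurred in 9.17% (GATA), 0.117% (GRHL), 0.0171% (PPAR-RXR), 3.42% (ETS) and 0.720% (EGR1) of all promoters. These matches describe letters only.

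Genes next to UPK2 did not show a rise that passed the test. BCL9L, a coactivator of beta-catenin whose locus borders UPK2, fell from 373 ± 12.4 to 324 ± 13.6 CPM (SD, n = 3 each), a log2FC of -0.20 (adjusted p = 0.00141). Whether the libraries keep strand is not given in the sources used here, and reads of the overlapping ends of BCL9L and UPK2 could then not be told apart. CXCR5, a chemokine receptor gene on the same side, was near 0, at 0.275 and 0.221 CPM. On the other side, CENATAC had a log2FC of -0.028 (adjusted p = 0.759), and RPS25, a ribosomal protein gene, fell to 819 CPM from 938 CPM (log2FC -0.20, adjusted p = 0.000869).

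The genes whose log2 CPM followed UPK2 most closely over the 6 samples, out of 13761 genes with a mean of at least 1 CPM, were EGR1 (Pearson's r = 0.9995), GABARAP (0.999), GJA1 (0.999), FBLN1 (0.999) and PXDN (0.999). These correlations describe 6 points in 2 groups and mainly reflect how cleanly the groups part. EGR1, an immediate-early transcription factor, went from 14.9, 16.2 and 14.6 CPM in shNC to 56.6, 54.0 and 52.9 CPM in shMSLN cells. GJA1, the gap junction protein connexin 43, went from 66.6 ± 1.03 to 104 ± 0.775 CPM (SD, n = 3 each). The autophagy gene GABARAP went from 180 ± 0.656 to 247 ± 2.63 CPM, FBLN1 from 372 ± 5.70 to 569 ± 11.4 CPM and PXDN from 123 ± 1.51 to 175 ± 3.33 CPM, the last 2 coding for proteins of the extracellular matrix.

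UPK1A and UPK1B belong to the tetraspanins, small proteins that organise other membrane proteins into microdomains. A list of 31 other tetraspanins had 23 genes above the filter, of which 4 rose and 5 fell. This was 39.1% of them, against 34.6% of all tested genes, and the median log2FC was 0.019 against 0.0019 for all tested genes. CD9, the most abundant, rose from 406 to 485 CPM (log2FC 0.26, adjusted p = 4.79e-05). TSPAN8 also rose, from 4.74 to 8.34 CPM (adjusted p = 0.000127). TSPAN2 fell from 34.0 to 17.5 CPM, a log2FC of -0.96 (adjusted p = 4.49e-08), and TSPAN1 fell by 0.24 (adjusted p = 0.000192). The count of 9 called tetraspanins was 5 with DESeq2 and 5 without shNC replicate 3, and 3 with shMSLN replicate 1 as the only shMSLN sample.

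In umbrella cells uroplakins travel to the surface in fusiform vesicles, which depend on Rab GTPases, myosin V motors and SNARE proteins, and are removed through endosomes. Of 18 genes listed for this transport, 17 were tested, with 5 higher and 2 lower and a median log2FC of 0.060. The share called was 41.2%, against 34.6% of all tested genes, and the count of 7 was 3 with shMSLN replicate 1 as the only shMSLN sample. SNX31, a sorting nexin that binds uroplakins in endosomes, rose from 0.904 ± 0.184 to 2.09 ± 0.426 CPM (SD, n = 3 each), a log2FC of 1.20 (adjusted p = 0.00235). MYO5A, a myosin V motor, rose by 0.87 (adjusted p = 2.55e-06), VAMP7, a SNARE of late endosomes and secretory vesicles, by 0.38 (adjusted p = 2.73e-05), and RAB11A, a GTPase of recycling endosomes, by 0.22 (adjusted p = 0.00034). VPS33A, which acts in fusion with lysosomes, fell from 63.5 to 48.7 CPM (adjusted p = 4.46e-05). RAB13, the most abundant of this list in TPM, rose by 0.15 (adjusted p = 0.0141). RAB27B, the GTPase best known for uroplakin delivery, had a log2FC of -0.15 that missed the threshold (adjusted p = 0.0717). MAL did not have a value in every shMSLN sample and was left out.

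Of 18 transcription factors with roles in the urothelium or related epithelia, 17 were tested, and 3 rose while 8 fell, with a median log2FC of -0.12. These were 64.7% of the tested factors, against 34.6% of all tested genes. Neither this list nor the others were matched to all tested genes in level. All were drawn up with earlier results known, so the shares called are descriptions only. PPARG, the nuclear receptor that drives urothelial differentiation, was at 133 and 139 CPM (log2FC 0.064, adjusted p = 0.236), and GATA3 was at 273 and 278 CPM (0.027, adjusted p = 0.639). The falls included the epithelial ETS factors ELF3, from 380 to 274 CPM (log2FC -0.47, adjusted p = 2.43e-07), and EHF, from 1164 to 870 CPM (-0.42, adjusted p = 1.06e-06). IRF1 fell by 0.53 (adjusted p = 9.91e-07) and KLF5 by 0.32 (adjusted p = 4.46e-05). GATA6, from 6.42 to 9.62 CPM, RXRA and FOXO1 rose.

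Among 20 urothelial markers other than the uroplakins, 19 were tested, 6 were higher and 8 lower, and the median log2FC was -0.075. These were 73.7% of the tested markers, against 34.6% of all tested genes, and the count of 14 was 5 with shMSLN replicate 1 as the only shMSLN sample. KRT20, the keratin that defines umbrella cells, was near 0 in both groups, at 0.129 and 0.147 CPM, so the uroplakin transcripts occurred here without this marker. KRT13, a keratin of intermediate urothelial and other stratified cells, rose from 1619 to 2081 CPM (adjusted p = 5.06e-07), and FABP4 rose from 57.1 to 88.0 CPM (adjusted p = 1.19e-05). AQP3, a water and glycerol channel, fell from 74.4 to 34.7 CPM, a log2FC of -1.10 (adjusted p = 2.06e-09), and KRT4 fell by 0.33 (adjusted p = 3.18e-05). KRT19, the most abundant marker in TPM, had a log2FC of 0.091 (adjusted p = 0.106). The direction was therefore mixed, with UPK1B and UPK3B on the side of KRT13 and FABP4. The urothelial markers were not matched to all tested genes in level, so their share called is a description only.

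Since UPK3B and MSLN share use as mesothelial markers, 12 other mesothelial genes were examined, of which 7 were tested, 3 rose and 1 fell, or 57.1% of those tested against 34.6% of all tested genes. MUC16, which encodes the binding partner of mesothelin, fell from 148 to 87.6 CPM, a log2FC of -0.76 (adjusted p = 3.12e-08). GPM6A rose from 5.67 to 11.3 CPM (adjusted p = 5.47e-06), CDH2, or N-cadherin, by 0.87 (adjusted p = 5.01e-05), and KRT7, the most abundant, by 0.16 (adjusted p = 0.0140). KRT7 was also among the called urothelial markers, so the lists are not independent. The list was unevenly expressed, with podoplanin (PDPN) at 38.7 and 39.0 CPM (adjusted p = 0.876) and BNC1 at 18.2 and 17.4 CPM (adjusted p = 0.586). WT1, calretinin (CALB2), DES and LRRN4 averaged at most 0.846 CPM in either group. HAS1 and ITLN1 did not have a value in every shMSLN sample and were left out. UPK3B rose while MSLN fell, but MSLN was the target of the shRNA. Its fall was therefore imposed and is not a result about mesothelial markers.

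Markers of cells that a pure line should lack were checked as well. Of 13 leukocyte, fibroblast and endothelial genes, 9 were tested, 3 rose and 0 fell, or 33.3% called against 34.6% of all tested genes. The summed level of the list went from between 71.5 and 74.2 TPM in shNC cells to between 130 and 134 TPM in shMSLN cells. LUM, a proteoglycan of connective tissue, made up most of this, at 60.3 and 125 CPM (log2FC 1.05, adjusted p = 4.02e-10), and VWF and DCN were the other genes that rose. The count of 3 was 1 with DESeq2, without shNC replicate 3, without shMSLN replicate 2 or 3, and with shMSLN replicate 1 as the only shMSLN sample. The fibroblast collagen gene COL1A1 was at 31.0 and 31.4 CPM (adjusted p = 0.83). PTPRC, LYZ, CD14, PECAM1 and CDH5 averaged between 0.668 and 2.95 CPM in the groups and did not pass the test, and CD3E, COL1A2 and COL3A1 averaged at most 0.294 CPM. The part of these genes in the uroplakin values was not tested. On the basal and squamous list 4 genes rose, DSG3 among them at 8.15 and 14.6 CPM, and 5 fell, among them KRT6A, from 145 to 70.9 CPM (adjusted p = 4.12e-07), KRT5, from 2270 to 1749 CPM (adjusted p = 1.40e-05), and TP63, from 396 to 339 CPM (adjusted p = 0.000703). These were 64.3% of the tested genes of the list, against 34.6% of all tested genes, and the count of 9 was 4 with shMSLN replicate 1 as the only shMSLN sample. The basal and squamous list was not matched to all tested genes in level either, so its share called is a description only. TP63 was also among the called urothelial transcription factors, so these lists are not independent. In such bulk samples, fewer cells with a transcript and less of it per cell cannot be told apart.

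**Figure D3:**
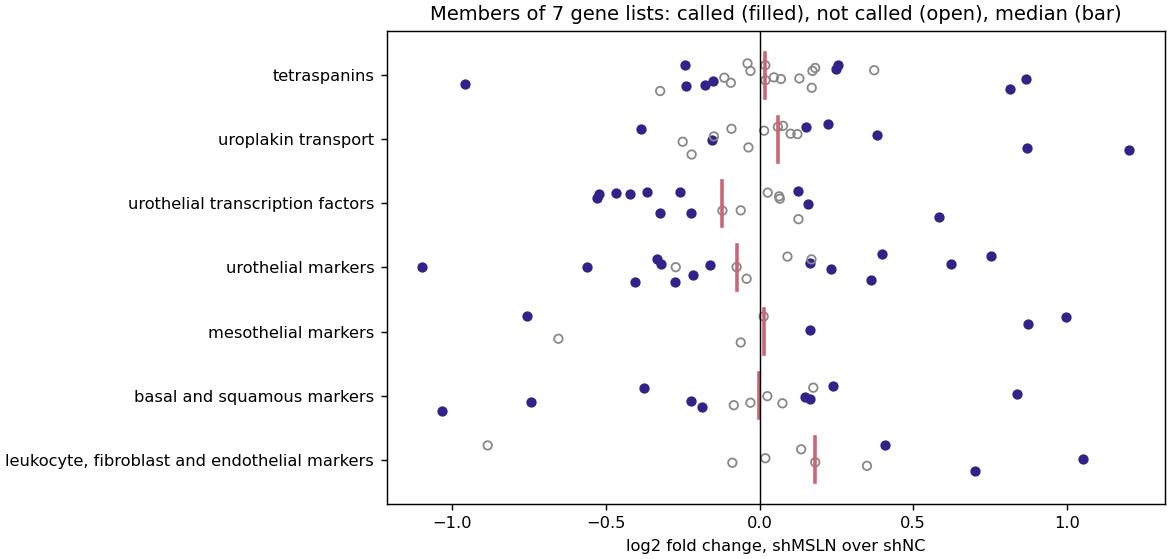
Each point is a tested gene of 1 of 7 lists, placed by its log2 fold change of shMSLN over shNC, filled where the adjusted p was below 0.05 and open otherwise; vertical jitter only separates the points, and red bars are medians. The medians run from -0.12 for the urothelial transcription factors to 0.18 for the leukocyte, fibroblast and endothelial markers, of which 3 were called higher and 0 lower, whereas the other 6 lists hold genes called in both directions.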

How the data were processed

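Oligo(dT)-enriched mRNA was sequenced by BGI, and per the labels the genome build was GRCh38.p13. The aligner, quantifier and annotation are not given in the sources used here. The authors deposited estimated counts, not scaled to library size, with TPM and FPKM values scaled for length and depth, for each of 6 samples. Cells with error or missing marks were read as missing, and the 1287 genes concerned were left out. Rounded estimated counts were tested in edgeR 4.0.16 (R 4.3.3) with TMM, filterByExpr and glmQLFTest, with Benjamini-Hochberg adjustment over 14552 genes and a threshold of 0.05. Standard errors are the log2 fold change divided by the square root of F. The test was checked on simulated counts. TPM served for levels between genes. Alternatives were RLE and upper-quartile scaling, 2 other filters, DESeq2 1.42.0, limma-voom (limma 3.58.1), a replicate block, missing values as 0, each sample left out, and FPKM or CPM for levels. The fit with shMSLN replicate 1 alone was added after seeing the data. Named genes were the uroplakins, MSLN, UPK3BL1, overlapping genes and the 2 nearest listed genes on each side of UPK2, the 5 genes closest to UPK2 by Pearson's r of log2(CPM + 0.5), and in each list the 4 called members with the smallest adjusted p and the most abundant one. UPK3BL2, PPARG, GATA3, GATA6, RXRA, FOXO1, KRT14, KRT20, SNX31, RAB27B and MAL were named after their values were seen. So were the uncalled mesothelial, leukocyte, fibroblast and endothelial markers. Members and lists were chosen with earlier results of these data known. Neighbours were taken from RefSeq gene order, in which 99.67% of NCBI Gene numbers were found. The coding sequence of UPK2 is not reported here.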

Additional observations from a re-analysis of the deposited data

How the results depend on the processing

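UPK2 kept its direction under every alternative run, with log2 fold changes from 1.53 without shMSLN replicate 1 to 1.63 with that replicate as the only shMSLN sample, and UPK1B, UPK3B and UPK3A kept their direction and their side of the threshold under all of them. With shMSLN replicate 1 alone, the lone sample is assumed to vary like the shNC samples, and 1797 genes were called instead of 5032, with 876 higher and 921 lower, in a fit with fewer samples. On CPM in place of TPM, the share of UPK2 in the summed uroplakin level was 7.19% in shNC and 14.9% in shMSLN cells, since CPM are not divided by length, and FPKM gave the shares that TPM gave. With the replicate number as a replicate block, UPK1B had a log2 fold change of 0.40 and UPK3B of 0.39, and 5789 genes were called. The numbers were not taken to pair the samples, because same-numbered samples had deviations that correlated at 0.165, 0.0764 and 0.0718. Every sample correlated best with its own number, which is a hint from the data and not from the design. Depth limits UPK1A, which was below the filter, and UPK3A.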
